A study of Homo sapiens with 12 samples.

Results

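The last steps of mitochondrial respiration are carried out by complex III, complex IV and ATP synthase, and most of their subunits are encoded in the nucleus. This account covers 37 such nuclear genes: 9 of complex III, 10 of complex IV, and 18 of ATP synthase, the last including its inhibitor protein. The genes were picked by name; the rule itself uses no measured value, but the choice was made with earlier results of these data known. All 37 were found among the 63241 genes of the deposited expression table, and all 37 had at least 1 TPM in at least 3 libraries. TPM, as deposited, is a transcript's abundance per unit of length, relative to all transcripts of the library.

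Complex III (ubiquinol-cytochrome c reductase) takes electrons from ubiquinol and passes them to cytochrome c, and complex IV (cytochrome c oxidase) passes them on to oxygen. Both pump protons out of the mitochondrial matrix. ATP synthase lets the protons back in through a ring of c subunits in the inner membrane, and the turning ring drives ATP synthesis in the F1 head. The MT-CYB subunit of complex III, the catalytic core of complex IV and part of the proton channel of ATP synthase are encoded in mitochondrial DNA. The genes described here are read in the nucleus and their products imported. Many of these products are very small: 28 of the 37 have a coding sequence of at most 600 bases in GENCODE 29.

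RNA came from the human line HEPM, made from mesenchyme of the embryonic palate, and was taken 6 h after plasmid transfection and selected on poly(A). The plasmids carried MSX1, a DNA-binding regulator needed for the palate to form, in 4 forms with 3 libraries each: R157K, R157F and R157S, in which 1 arginine is replaced by lysine, phenylalanine or serine, and the unchanged protein (WT). The title of the series speaks of MSX1 methylated by PRMT1, of its phase separation and of the palate, and the design text states that the 4 plasmids were compared with each other. Every group, WT included, thus carried extra MSX1, and cells with an empty vector or no plasmid were not analysed here. MSX1 itself had 563, 333 and 604 TPM with R157K, 984, 627 and 1007 TPM with R157F and 642, 386 and 326 TPM with R157S, against 342, 224 and 446 TPM with WT, for replicates 1, 2 and 3 in that order, which is the order used for library values throughout. Against WT its log2 change was 0.58 with R157K (adjusted p = 0.13, but 0.0396 with replicate number as a block and 0.0134 with median-ratio scaling), 1.39 with R157F (adjusted p = 0.00288) and 0.41 with R157S (adjusted p = 0.335). MSX1 was higher with R157K than with WT for each of the 3 replicate numbers. The table does not separate plasmid MSX1 from the cells' own.

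The 12 libraries each summed to 999999 to 1000001 TPM and had 20954 to 22295 genes above 0. The sequencing depth behind the values is unknown, because TPM keeps none. All 10 mesenchyme markers averaged at least 1 TPM in every group, and their summed level was 17720 to 20988 TPM with R157K, 23995 to 25827 TPM with R157F and 23829 to 24320 TPM with R157S, against 17501 to 20921 TPM with WT. Among the 10 epithelial markers, 4 averaged at least 1 TPM in each group. The sums of the 10 were 81.9 to 103.8 TPM with R157K, 91.4 to 99.3 TPM with R157F and 66.4 to 82.1 TPM with R157S, against 40.2 to 70.5 TPM with WT. Most came from KRT19 (28.9 to 85.5 TPM), with CLDN4 at 5.33 to 10.1 TPM, KRT15 at 2.42 to 6.11 TPM and KRT17 at 1.51 to 2.91 TPM. CDH1, EPCAM and TP63 were at most 0.5 TPM in every library. Of the 6 endothelial, 6 immune, 5 neural and 5 muscle markers, 2, 1, 1 and 1 to 2 reached that mean, and CDH5, PTPRC, SOX10 and MYOD1 were at or near 0. The endothelial sums, from PECAM1 and TEK, were 4.81 to 5.06 TPM with R157K, 5.46 to 7.38 TPM with R157F and 9.90 to 12.4 TPM with R157S, against 11.9 to 12.3 TPM with WT. The immune sums, nearly all CD68, were 263 to 351 TPM with R157K, 430.3 to 661 TPM with R157F and 558 to 649.6 TPM with R157S, against 233 to 488 TPM with WT. The neural sums, nearly all TUBB3, were 169.5 to 229 TPM with R157K, 233 to 261 TPM with R157F and 198 to 213.5 TPM with R157S, against 113.5 to 192 TPM with WT. Among the muscle markers, DES was at 2.44 to 5.86 TPM and MYH3 at 0.48 to 1.58 TPM. The part of such cells in the results was not tested. In bulk RNA, fewer cells of a type and less RNA per cell cannot be told apart. WT replicate 2 stood apart from replicates 1 and 3, with 9.96% of its TPM from mitochondrially encoded genes against 7.55% and 6.36%, and its value was the lowest of the WT libraries for 20 of the 37 genes and the highest for 13.

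The share of all transcripts devoted to these 37 genes was larger with R157K than with any other plasmid. It was 1.14%, 1.30% and 1.14% with R157K, 0.736%, 0.728% and 0.775% with R157F and 0.665%, 0.668% and 0.659% with R157S, against 0.623%, 0.569% and 0.649% with WT. The R157K libraries lay above all others, the R157F libraries lay above those of R157S and WT, and the R157S libraries lay just above those of WT. Ribosomal protein genes, another group of short and abundant transcripts, moved with them: they held 11.7% to 14.0% of TPM with R157K, 7.58% to 7.96% with R157F and 6.45% to 6.73% with R157S, against 4.62% to 6.31% with WT. In 24 of the 37 genes every R157K library was above each of the other 9 libraries. How many of all tested genes did so was not counted.

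**Figure D1:**
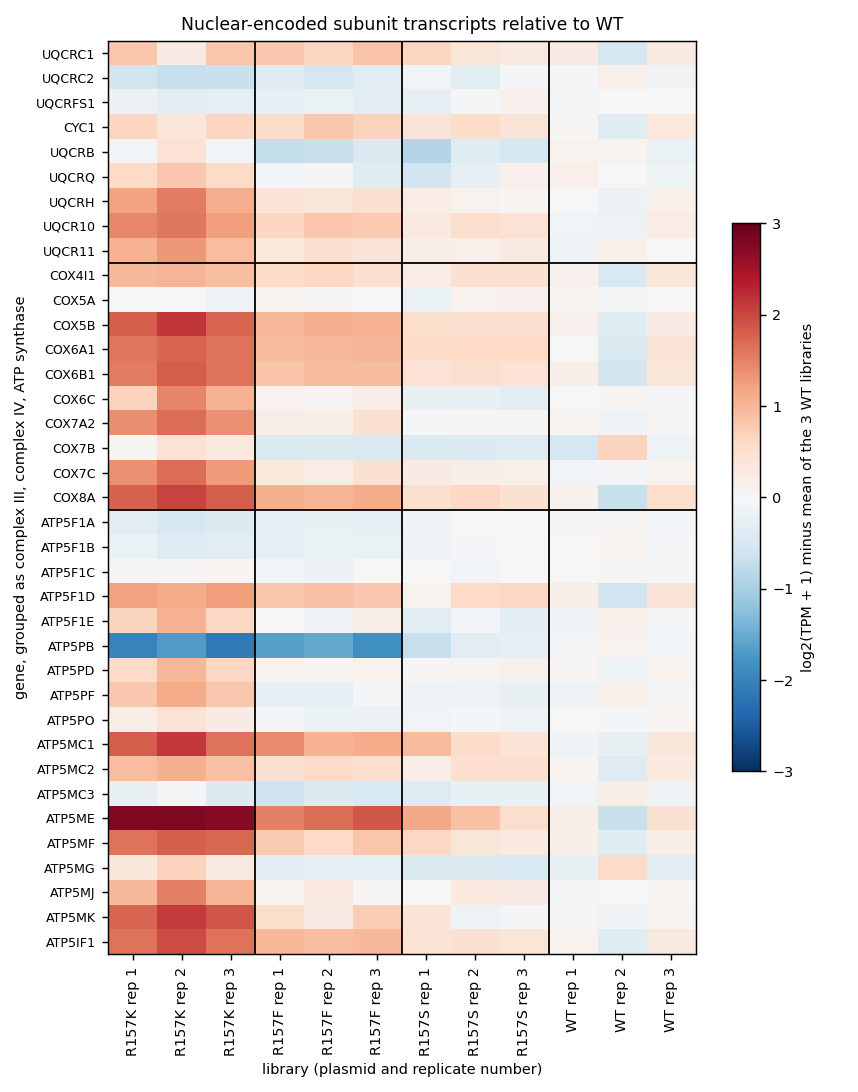
log2(TPM + 1) of the 37 genes (rows, from complex III at the top through complex IV to ATP synthase) in the 12 libraries (columns, grouped by plasmid), each minus the mean of the 3 WT libraries of that gene. Red is above and blue below WT. Most rows are red with R157K, paler with R157F and close to white with R157S, and ATP5PB is the darkest blue row.

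Each gene was compared between plasmids with limma on log2(TPM + 1). A gene was called where its p, adjusted by the Benjamini-Hochberg method over all 14718 genes tested, was below 0.05. Because the median of all tested genes was itself lower with R157K (-0.34 on the log2 scale against WT), changes are given as relative changes: the log2 change of the gene minus the median change of all tested genes in that comparison. The test is of the change before that subtraction. With R157K against WT, 26 of the 37 genes were called higher and 5 lower, while 17.3% of all tested genes were called higher and 46.2% lower. The median relative change of the 37 genes was 1.30. With R157F against WT, 19 were called higher and 6 lower, against 24.4% and 33.8% of all tested genes, and the median relative change was 0.36. With R157S against WT, 5 were called higher and 1 lower, against 7.6% and 12.8% of all tested genes, and the median relative change was 0.09.

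The counts with R157S moved with single libraries, and so did the calls over all genes. They were 0 and 0 without WT replicate 1 (4.6% of all tested genes called in either direction), WT replicate 2 (6.22%), R157S replicate 2 (0.267%) or R157S replicate 3 (0.985%). They were 1 and 0 without R157S replicate 1 (11.6%), and 13 and 3 without WT replicate 3 (39.3%). Without WT replicate 2, limma put 7 members higher and 2 lower with R157S at an unadjusted p under 0.05. The share of all tested genes at that unadjusted threshold was not counted. Leaving out WT replicate 2 gave R157K 27 called higher and 4 lower (60.6% of all tested genes called in either direction) and R157F 18 and 6 (49.2%). Scaling each library to its median ratio gave 31 higher and 1 lower with R157K (31.1% and 30.1% of all tested genes), 19 and 4 with R157F (29.6% and 28.5%), and 6 and 0 with R157S (9.99% and 9.92%). The libraries did not overlap between variant and WT for 30 of the 37 genes with R157K, 28 with R157F and 17 with R157S, against 63.5%, 66.3% and 43.6% of all tested genes. The same scaling moved the higher share of all calls to 50.8% with R157K, 50.9% with R157F and 50.2% with R157S, against 27.3%, 42.0% and 37.3% as deposited. The labels do not say whether the 3 libraries of a plasmid were grown as separate cultures; the p-values therefore reflect the variation among these libraries, and that variation may be technical. limma's test across the 4 plasmids called 34 of the 37 genes, where 70.8% of all tested genes were called. UQCRFS1, COX5A and ATP5F1C were not called (adjusted p = 0.0753, 0.840 and 0.617).

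Complex III has 9 of the genes. With R157K, 6 were called higher and 2 lower than with WT, and the summed level of the 9 was 1306 ± 62.6 TPM with R157K, 996 ± 33.5 TPM with R157F, 895 ± 11.6 TPM with R157S and 863 ± 51.5 TPM with WT (SD, n = 3 each). The large core subunits and the small supernumerary subunits are described in turn.

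Among the 4 core genes, R157K gave 2 higher and 2 lower calls. UQCRC2, a core protein that scaffolds the matrix side of the complex and lies at chr16:21952660-21983660 (GRCh38, GENCODE 29, as are all gene positions here), had 109, 99.3 and 100.4 TPM with R157K, 123, 113 and 126 TPM with R157F and 151, 129 and 155 TPM with R157S, against 154, 179 and 149.6 TPM with WT. Its R157K libraries lay below all WT libraries, without overlap. The log2 change was -0.64 with R157K (SE 0.10, adjusted p = 0.000163) and -0.41 with R157F (adjusted p = 0.00514); relative to all genes these are -0.30 and -0.32. With median-ratio scaling UQCRC2 was still lower but not called with R157K (-0.22, adjusted p = 0.0942), and with the trends on GC content and length removed its sign turned with R157K (0.02, adjusted p = 0.87) and the R157F call was lost (-0.05, adjusted p = 0.679). UQCRC1, its partner core protein at chr3:48599002-48610976, had 302, 203 and 306 TPM with R157K, 298, 265 and 309 TPM with R157F and 268, 218 and 205 TPM with R157S, against 200.4, 119.5 and 205 TPM with WT. It was called higher with R157K (relative change 0.98, SE 0.21, adjusted p = 0.017), although R157K replicate 2 and the higher WT libraries all lie near 200 TPM, and with R157F (relative change 0.85, SE 0.21, adjusted p = 0.00771), where the libraries did not overlap. The R157K call was lost without R157K replicate 1, R157K replicate 3 or WT replicate 2 (adjusted p = 0.0646, 0.068 and 0.0627). Both calls of UQCRC1 were lost with the trends removed, at 0.29 with R157K (adjusted p = 0.0861) and 0.21 with R157F (adjusted p = 0.228).

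CYC1, cytochrome c1, which hands electrons to soluble cytochrome c, averaged 68.7 ± 7.11 TPM with R157K, 75.2 ± 6.47 TPM with R157F and 47.3 ± 11.3 TPM with WT and was called higher with both (relative change 0.89 with R157K and 0.76 with R157F). With the GC and length trends removed the sign of CYC1 turned in both (-0.19, adjusted p = 0.0226, and -0.04, adjusted p = 0.645). UQCRFS1, the Rieske iron-sulfur subunit, averaged 31.0 ± 1.66 TPM with R157K, 31.1 ± 1.60 TPM with R157F and 37.3 ± 0.684 TPM with WT. Its call with R157K (log2 change -0.26, adjusted p = 0.0435) was lost with replicate number as a block (adjusted p = 0.0639) and without any 1 of R157K replicate 2 or 3 or the WT replicates (adjusted p = 0.0656 to 0.0984), and its sign turned with median-ratio scaling (0.15) and with the trends removed (0.48, adjusted p = 0.00168). Its pseudogene UQCRFS1P1 is listed at 15.4% of its level, so reads may be split between them.

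The 5 small subunits sit around that core. With R157K, 4 were called higher and 0 lower. UQCR10, a membrane subunit beside the Rieske protein, had the largest relative change of complex III (1.77, adjusted p = 2.11e-06), with 107 ± 11.7 TPM with R157K, 66.8 ± 4.23 TPM with R157F and 39.4 ± 5.80 TPM with WT. UQCRH, the hinge protein that helps cytochrome c dock on cytochrome c1, averaged 390.5 ± 63.4 TPM with R157K, 213 ± 8.65 TPM with R157F and 159.6 ± 18.4 TPM with WT (relative change 1.62 with R157K). UQCR11 (relative change 1.43) and UQCRQ (1.00) were also higher with R157K, but neither was called with the trends removed (adjusted p = 0.527 and 0.8). With R157F, the call of UQCR11 (relative change 0.48) was then lost and its sign turned (-0.40, adjusted p = 0.149), and UQCRQ, not called before (adjusted p = 0.421), was called lower (-0.66, adjusted p = 0.0169).

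The remaining small subunit is UQCRB, which contributes to the ubiquinone site. It had 133, 192 and 132 TPM with R157K, 84.6, 86.3 and 104 TPM with R157F and 75.8, 108 and 97.3 TPM with R157S, against 152, 149 and 122 TPM with WT. The R157F and R157S libraries all lay below the WT libraries, whereas the R157K libraries overlapped them. It was called lower with R157F (relative change -0.53, SE 0.17, adjusted p = 0.00841) and with R157S (relative change -0.59, SE 0.17, adjusted p = 0.0343), and not called with R157K (adjusted p = 0.649). With the trends removed the R157F change of UQCRB turned to 0.14 (adjusted p = 0.563) and R157S gave -0.14 (adjusted p = 0.655), while R157K was called higher (1.20, adjusted p = 0.000199). Median-ratio scaling also called UQCRB higher with R157K (0.51, adjusted p = 0.0324) and ended the R157S call (adjusted p = 0.0521). An antisense gene overlaps its start, and the strand setting of the authors' quantification is not given in the sources used here.

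Most of complex IV rose with R157K and R157F. Its 10 genes summed to 3943 ± 413 TPM with R157K, 2274 ± 68.5 TPM with R157F, 1835 ± 61.2 TPM with R157S and 1574 ± 232 TPM with WT (SD, n = 3 each). With R157K, 8 were called higher and 0 lower than with WT, with a median relative change of 1.79. With R157F, 7 were higher and 0 lower, and with R157S, 2 and 0. All are supernumerary subunits that surround the mitochondrially encoded catalytic core.

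COX5B, a zinc-binding subunit on the matrix side encoded at chr2:97646040-97648383, had 158, 197 and 149.8 TPM with R157K, 89.2, 93.3 and 91.7 TPM with R157F and 64.4, 62.2 and 62.4 TPM with R157S, against 48.0, 33.8 and 52.5 TPM with WT. The 4 groups did not overlap, and the order was R157K, R157F, R157S, WT. Its relative change was 2.24 with R157K (SE 0.15, adjusted p = 1.27e-06), 1.12 with R157F (adjusted p = 0.000293) and 0.51 with R157S (adjusted p = 0.0355). The R157S call was lost with the trends removed (0.40, adjusted p = 0.0537).

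COX8A, a very small membrane subunit of the oxidase, encoded at chr11:63974607-63976543, had 446, 534 and 461 TPM with R157K, 275, 266 and 285 TPM with R157F and 183, 200.3 and 179 TPM with R157S, against 144, 81.9 and 190.0 TPM with WT. The R157K libraries were the highest and the R157F libraries came next, while R157S overlapped WT where WT replicate 3 reached 190.0 TPM. COX8A was called higher with R157K (relative change 2.20, SE 0.22, adjusted p = 1.55e-05) and R157F (relative change 1.15, SE 0.22, adjusted p = 0.0017), and not with R157S (adjusted p = 0.102).

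COX6A1, the form of subunit 6A found outside heart and skeletal muscle, had 477, 529 and 484 TPM with R157K, 302, 314 and 316 TPM with R157F and 228, 236 and 238 TPM with R157S, against 159, 116 and 207 TPM with WT. None of the groups overlapped, and all 3 variants were called higher than WT, by a relative change of 1.999 with R157K (adjusted p = 3.47e-06), 1.07 with R157F (adjusted p = 0.00044) and 0.59 with R157S (adjusted p = 0.0295). COX6B1, a subunit of the face toward the intermembrane space, averaged 546 ± 48.8 TPM with R157K, 324 ± 13.3 TPM with R157F and 178 ± 54.2 TPM with WT (relative change 2.002 with R157K).

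COX7A2, COX7C and COX6C, small subunits that cross the membrane, and COX4I1, the largest nuclear subunit, were also called higher with R157K. COX7A2 averaged 732 ± 86.9 TPM with R157K, 318 ± 34.7 TPM with R157F and 262 ± 19.9 TPM with WT, with a relative change of 1.82 with R157K (adjusted p = 9.91e-07). With R157F its relative change was 0.36, called without the replicate block (adjusted p = 0.0411) and not with it (adjusted p = 0.0589), nor without R157F replicate 1 or 3 or WT replicate 2 or 3 (adjusted p = 0.0532 to 0.177). COX7C lost its R157F call without R157F replicate 3 (adjusted p = 0.0797) or WT replicate 1 (0.0633). COX7C averaged 556 ± 82.0 TPM with R157K, 259 ± 21.6 TPM with R157F and 204 ± 13.9 TPM with WT, and COX6C averaged 297 ± 80.2 TPM with R157K, 151 ± 7.58 TPM with R157F and 138 ± 4.96 TPM with WT. COX4I1 averaged 455 ± 19.2 TPM with R157K, 343 ± 12.2 TPM with R157F and 239 ± 63.0 TPM with WT. The trends removed ended its R157F call (adjusted p = 0.102, against 0.0103 as deposited), and called COX6C higher with R157F (0.71, adjusted p = 0.000515) and COX7C with R157S (0.53, adjusted p = 0.0174).

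COX5A and COX7B were the members of complex IV not called with R157K. COX5A, which partners COX4I1 at the face toward the matrix, did not pass in any comparison with WT, with 162 ± 6.02 TPM with R157K, 172 ± 5.63 TPM with R157F and 165 ± 7.30 TPM with WT. The ratio of COX5B to COX5A, which no scaling of a library can change, was 0.966, 1.18 and 0.968 with R157K, 0.502, 0.547 and 0.550 with R157F and 0.446, 0.350 and 0.346 with R157S, against 0.277, 0.212 and 0.322 with WT. COX5A was called higher with R157K under median-ratio scaling (adjusted p = 0.00666) and lower with the trends removed (-0.40, adjusted p = 0.00132), as it then was with R157F (-0.22, adjusted p = 0.0444). COX7B, a membrane subunit at chrX:77899438-77907373, had 42.6, 56.7 and 51.6 TPM with R157K, 30.8, 31.1 and 30.5 TPM with R157F and 30.3, 31.0 and 31.8 TPM with R157S, against 28.7, 67.0 and 37.5 TPM with WT. WT replicate 2 alone was above every other library, and no comparison of COX7B with WT was called (adjusted p = 0.341, 0.124 and 0.184 for R157K, R157F and R157S). It was called higher with R157K without WT replicate 2 (adjusted p = 0.00195) and lower with R157F without WT replicate 1 (adjusted p = 0.0137). It was also called higher with R157K under median-ratio scaling (0.67, adjusted p = 0.0269) and with the trends removed (1.10, adjusted p = 0.000398).

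**Figure D2:**
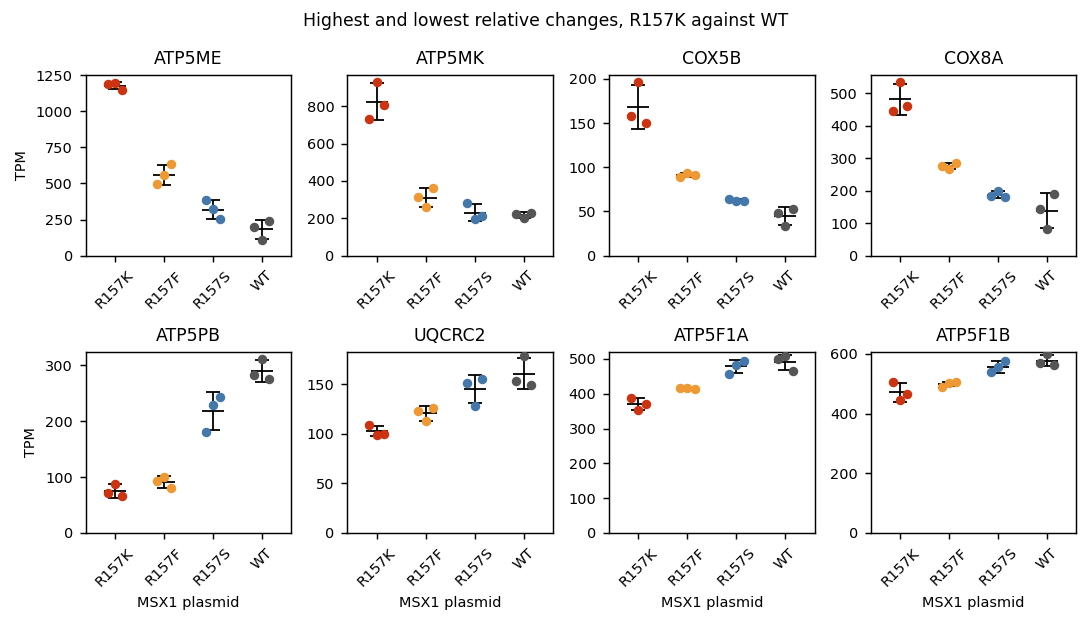
TPM by library for the 4 genes with the highest (top row) and the 4 with the lowest (bottom row) relative change in R157K against WT. Points are the 3 libraries of a plasmid, from replicate 1 at the left, and bars are the mean ± SD. ATP5ME reaches 1150 to 1193 TPM with R157K against 108 to 239 TPM with WT, and ATP5PB 65.4 to 88.1 TPM with R157K against 275 to 312 TPM with WT.

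ATP synthase has 18 of the genes, and they are described by their place in the enzyme. The sum was 6690 ± 447 TPM with R157K, 4189 ± 153 TPM with R157F, 3909 ± 62.7 TPM with R157S and 3699 ± 131 TPM with WT (SD, n = 3 each). With R157K, 12 were called higher and 3 lower than with WT. With R157F, 7 were higher and 4 lower, and with R157S, 2 and 0.

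The F1 head, where ATP is made, has 5 of them. ATP5F1B, the catalytic beta subunit encoded at chr12:56638175-56646068, had 505, 444 and 464 TPM with R157K, 491, 501 and 505 TPM with R157F and 538, 556 and 575 TPM with R157S, against 571, 599 and 563 TPM with WT. ATP5F1A, the alpha subunit that alternates with beta in the head, encoded at chr18:46080248-46104334, had 387, 353 and 371 TPM with R157K, 415, 418 and 412 TPM with R157F and 458, 483 and 495 TPM with R157S, against 499.8, 507 and 467 TPM with WT. For both genes the R157K and R157F libraries lay below all WT libraries, while R157S overlapped WT. The log2 change with R157K was -0.30 for ATP5F1B (SE 0.08, adjusted p = 0.00424) and -0.41 for ATP5F1A (SE 0.07, adjusted p = 0.000416), but relative to all genes these were 0.04 and -0.07, and under median-ratio scaling both turned to 0.12 and 0.01 and were not called. With the trends removed ATP5F1A was called higher (0.37, adjusted p = 0.000228) and ATP5F1B gave -0.13 (adjusted p = 0.104). With R157F the log2 change was -0.21 for ATP5F1B (adjusted p = 0.0299) and -0.24 for ATP5F1A (adjusted p = 0.0152); both calls were lost without WT replicate 1 (0.0616 and 0.0514), and that of ATP5F1B also without any R157F library (0.0632 to 0.0882). Neither was called with R157F under median-ratio scaling (adjusted p = 0.267 and 0.146). Removing the trends turned ATP5F1A with R157F to 0.11 and left ATP5F1B called lower (-0.25, adjusted p = 0.0133).

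ATP5F1C, the gamma subunit of the rotating shaft, was not called, with 264 ± 10.2 TPM with R157K, 246 ± 16.0 TPM with R157F and 261 ± 5.42 TPM with WT (relative change 0.35 with R157K). It was called higher with R157K under median-ratio scaling (0.43, adjusted p = 0.000905), and with the trends removed with R157K (0.42, adjusted p = 0.000981) and R157F (0.38, adjusted p = 0.00348). The small shaft subunits delta (ATP5F1D) and epsilon (ATP5F1E) were called higher with R157K, by relative changes of 1.53 and 1.12. ATP5F1D averaged 66.0 ± 3.57 TPM with R157K, 51.4 ± 1.55 TPM with R157F and 29.4 ± 9.47 TPM with WT, and ATP5F1E averaged 43.3 ± 7.66 TPM with R157K, 25.2 ± 2.80 TPM with R157F and 24.7 ± 2.60 TPM with WT. Removing the trends turned the change of ATP5F1D to -0.07 with R157K (adjusted p = 0.681) and -0.23 with R157F (adjusted p = 0.165), where it had been called higher (0.92), and ATP5F1E was then called with R157F (0.75, adjusted p = 0.00116). ATP5F1B and ATP5F1A ranked 9 and 13 of the 37 genes by mean level with R157K, and 1 and 2 with WT.

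The peripheral stalk holds the head still while the rotor turns. ATP5PB, its long b subunit anchored in the membrane and encoded at chr1:111448864-111462773, was the member with the largest fall. It had 71.3, 88.1 and 65.4 TPM with R157K, 93.4, 99.5 and 79.8 TPM with R157F and 180.0, 229 and 244 TPM with R157S, against 283, 312 and 275 TPM with WT. The R157K and R157F libraries, at 65.4 to 99.5 TPM, lay far below the WT libraries, and the R157S libraries lay between. The relative change was -1.61 with R157K (SE 0.14, adjusted p = 9.20e-07) and -1.58 with R157F (adjusted p = 3.52e-05). With R157S it was -0.41, not called without the replicate block (adjusted p = 0.0511) and called with it (adjusted p = 0.0425), which took the genes called lower with R157S to 2.

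The other stalk subunits were not called lower. OSCP (ATP5PO), which joins the stalk to the head, averaged 257 ± 23.3 TPM with R157K, 188 ± 10.3 TPM with R157F and 209 ± 7.31 TPM with WT, d (ATP5PD) averaged 385 ± 63.2 TPM with R157K, 245 ± 8.12 TPM with R157F and 231 ± 19.5 TPM with WT, and the coupling factor F6 (ATP5PF) averaged 293 ± 37.5 TPM with R157K, 137 ± 10.2 TPM with R157F and 155 ± 16.1 TPM with WT. All 3 were called higher with R157K (relative changes 0.64, 1.06 and 1.25), and none was called with R157F, except ATP5PD with the trends removed (0.38, adjusted p = 0.00766). The ratio of ATP5PB to ATP5PO was 0.297, 0.311 and 0.264 with R157K, 0.468, 0.548 and 0.438 with R157F and 0.911, 1.15 and 1.28 with R157S, against 1.36, 1.54 and 1.27 with WT. ATP5PB stayed called lower with the GC and length trends removed, with R157K (-1.11, adjusted p = 5.51e-05) and with R157F (-1.14, adjusted p = 0.000237), but not with R157S (-0.15, adjusted p = 0.512). WDR77, a partner of the arginine methyltransferase PRMT5, lies on the other strand. By the GENCODE gene bounds, which start ATP5PB at chr1:111448864, WDR77 overlaps ATP5PB and starts 512 bases from that start. The RefSeq start behind the promoter window of ATP5PB, chr1:111449214-111449513, lies further downstream, so the overlap depends on the start used. WDR77 averaged 23.6 ± 0.262 TPM with R157K and 42.1 ± 5.65 TPM with WT (relative change -0.47, adjusted p = 7.65e-05). Without the strand setting, reads of the pair cannot be told apart where they overlap.

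The c ring is built of identical copies of 1 small protein that 3 genes on separate chromosomes encode. Only their import signals differ: over the last 228 coding bases, which hold the mature protein and the stop codon, the 3 genes encode the same amino acids (0 differences). The DNA of that stretch is shown to let the reader see how far reads of these genes can be told apart. Bases at the 53 positions that differ among the 3 genes are in capitals, from the GENCODE 29 transcripts of ATP5MC1 (chromosome 17), ATP5MC2 (chromosome 12) and ATP5MC3 (chromosome 2).
ATP5MC1: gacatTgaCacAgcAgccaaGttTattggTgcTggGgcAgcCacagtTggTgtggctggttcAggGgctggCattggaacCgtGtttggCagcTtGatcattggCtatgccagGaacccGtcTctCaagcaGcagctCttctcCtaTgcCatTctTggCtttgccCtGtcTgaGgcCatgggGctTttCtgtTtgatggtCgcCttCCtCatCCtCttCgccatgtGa
ATP5MC2: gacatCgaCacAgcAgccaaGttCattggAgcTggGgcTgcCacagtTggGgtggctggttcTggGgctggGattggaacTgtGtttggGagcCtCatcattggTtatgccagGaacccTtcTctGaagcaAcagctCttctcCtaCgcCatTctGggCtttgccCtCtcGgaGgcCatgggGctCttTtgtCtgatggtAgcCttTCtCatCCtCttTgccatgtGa
ATP5MC3: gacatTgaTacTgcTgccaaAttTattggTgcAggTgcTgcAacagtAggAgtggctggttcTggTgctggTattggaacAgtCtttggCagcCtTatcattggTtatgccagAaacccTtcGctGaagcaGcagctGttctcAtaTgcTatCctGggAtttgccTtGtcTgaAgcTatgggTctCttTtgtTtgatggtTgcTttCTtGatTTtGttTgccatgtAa
ATP5MC1 and ATP5MC2 were identical at 89.0% of these bases, and each matched ATP5MC3 at 81.1%. The longest run shared by any pair was 17 bases. Reads longer than that over this stretch hold at least 1 difference, but how the authors' quantification divided reads among the genes was not tested. The pseudogene ATP5MC1P4 is listed at 2.06% of the level of ATP5MC1.

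The 3 c-ring genes differed in their calls. ATP5MC1 had 161, 199 and 140.4 TPM with R157K, 122, 93.7 and 97.7 TPM with R157F and 87.5, 66.0 and 59.2 TPM with R157S, against 41.0, 38.0 and 56.9 TPM with WT. No group overlapped WT, and it was called higher with R157K (relative change 2.20, SE 0.19, adjusted p = 5.37e-06), with R157F (relative change 1.28, SE 0.19, adjusted p = 0.000425) and with R157S (relative change 0.64, SE 0.19, adjusted p = 0.0369). The R157S call of ATP5MC1 was lost with the trends removed (0.48, adjusted p = 0.13). ATP5MC2 had 349, 389 and 338 TPM with R157K, 252, 273 and 255 TPM with R157F and 210.3, 261 and 261 TPM with R157S, against 195, 140.1 and 227 TPM with WT. It was the most abundant of the 3 in every library but WT replicate 2, and was called higher with R157K (relative change 1.30, SE 0.15, adjusted p = 0.000141) and R157F (relative change 0.58, SE 0.15, adjusted p = 0.0142). The R157F call of ATP5MC2 was lost with the trends removed (0.08, adjusted p = 0.629). ATP5MC3 had 137, 155 and 119 TPM with R157K, 103, 119 and 115 TPM with R157F and 122, 136 and 137 TPM with R157S, against 149, 181 and 149 TPM with WT. It was called lower with R157F (relative change -0.42, SE 0.12, adjusted p = 0.00323), where no library overlapped WT, and was not called with R157K (adjusted p = 0.118) unless the trends were removed (-0.41, adjusted p = 0.014) or R157K replicate 2 was left out (adjusted p = 0.0346).

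As a share of the c-ring transcripts, ATP5MC1 gave 24.8%, 26.8% and 23.5% with R157K, 25.5%, 19.3% and 20.9% with R157F and 20.8%, 14.3% and 13.0% with R157S, against 10.6%, 10.6% and 13.2% with WT. ATP5MC3 gave 21.2%, 20.9% and 19.97% with R157K, 21.6%, 24.4% and 24.6% with R157F and 29.1%, 29.3% and 29.96% with R157S, against 38.7%, 50.4% and 34.4% with WT. The summed level of the 3 genes was 663 ± 73.8 TPM with R157K, 477 ± 9.12 TPM with R157F, 446 ± 23.0 TPM with R157S and 392 ± 37.3 TPM with WT (SD, n = 3 each).

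**Figure D3:**
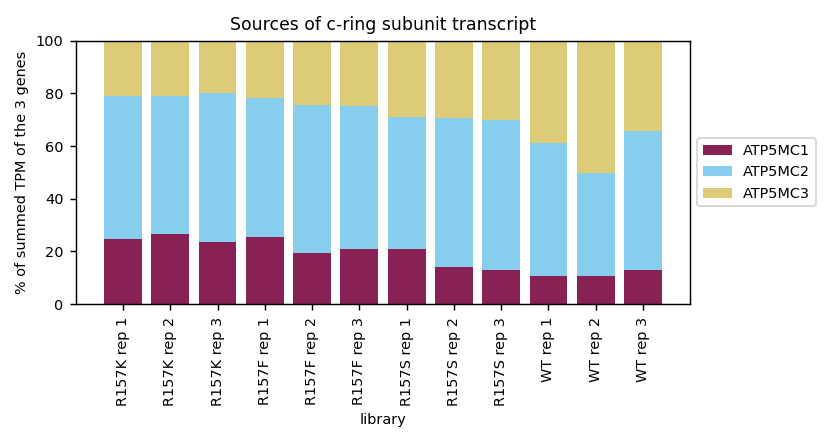
Share of the summed TPM of the 3 c-ring genes that each gene gives (stacked bars, percent) in each of the 12 libraries. ATP5MC1 gives 23.5% to 26.8% with R157K and 10.6% to 13.2% with WT, and ATP5MC3 19.97% to 21.2% with R157K and 34.4% to 50.4% with WT.

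The small membrane subunits, which stabilise the rotor's surroundings and join ATP synthases into dimers, include ATP5ME and ATP5MK, the members with the largest relative changes with R157K. Of the 5, 4 were called higher with R157K and 0 lower, with a median relative change of 2.05. ATP5ME, subunit e, is encoded at chr4:672436-674338 and had 1186, 1193 and 1149.9 TPM with R157K, 495, 555 and 632 TPM with R157F and 383, 320.2 and 251 TPM with R157S, against 200.2, 108 and 239 TPM with WT. The R157K libraries were within a few percent of each other and well above those of R157F, and no variant overlapped WT. The ratio of mean TPM to WT was 6.44 with R157K, 3.07 with R157F and 1.74 with R157S. The relative changes were 3.10 (SE 0.24, adjusted p = 2.15e-06), 1.77 (adjusted p = 0.00029) and 0.86 (adjusted p = 0.0323). Without the trends they were 2.37, 1.33 and 0.67, the last not called (adjusted p = 0.0795). ATP5ME exceeded ATP5F1B with R157K, by a ratio of 2.35, 2.68 and 2.48, and was at 1.01, 1.11 and 1.25 of it with R157F and 0.712, 0.576 and 0.436 with R157S, against 0.351, 0.181 and 0.425 with WT.

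ATP5MK (DAPIT), a subunit that helps ATP synthase dimers pack, is encoded at chr10:103389041-103396492. It had 733, 932 and 806 TPM with R157K, 311, 258 and 363 TPM with R157F and 283, 197 and 212 TPM with R157S, against 221, 201 and 230.1 TPM with WT. Every R157K library was above all others, and R157S overlapped WT. ATP5MK was called higher with R157K (relative change 2.25, SE 0.15, adjusted p = 1.50e-06) and R157F (relative change 0.59, SE 0.15, adjusted p = 0.0143), and not with R157S (adjusted p = 0.751). The R157F call was lost without R157F replicate 3 (adjusted p = 0.0678). ATP5MF, subunit f, was the most abundant of the 37 genes with R157K and with R157F, and averaged 1191 ± 71.8 TPM with R157K, 605 ± 51.3 TPM with R157F and 367 ± 74.7 TPM with WT (relative change 2.05 with R157K); a read-through gene with PTCD1 is listed at 0.954% of its level. ATP5MJ, a proteolipid subunit, averaged 169 ± 36.1 TPM with R157K, 81.1 ± 8.37 TPM with R157F and 73.5 ± 2.90 TPM with WT (relative change 1.51 with R157K), and was called with R157F with the trends removed (0.34, adjusted p = 0.0315).

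ATP5MG, subunit g, which pairs with e, is encoded at chr11:118401154-118431496. It had 127, 164 and 120.5 TPM with R157K, 79.5, 82.5 and 81.6 TPM with R157F and 74.4, 73.7 and 73.5 TPM with R157S, against 85.4, 149 and 79.6 TPM with WT. WT replicate 2 lay within the R157K range and well above the other WT libraries. Its relative change with R157K was 0.77, not called without the replicate block (adjusted p = 0.0681) and called with it (adjusted p = 0.0382), and it was not called with R157F or R157S (adjusted p = 0.193 and 0.109). Without WT replicate 2 the R157K change was called (adjusted p = 0.000188), as it was under median-ratio scaling (0.85, adjusted p = 0.00381) and with the trends removed (1.00, adjusted p = 0.00017).

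ATP5IF1, the inhibitor that binds the head and stops ATP from being broken down when the proton gradient fails, averaged 306 ± 40.7 TPM with R157K, 177 ± 4.63 TPM with R157F and 91.9 ± 20.5 TPM with WT. It was called higher with R157K (relative change 2.08, SE 0.15, adjusted p = 1.82e-06) and R157F (relative change 1.05, SE 0.15, adjusted p = 0.00036). Its ratio to ATP5F1B, the subunit it binds, was 0.561, 0.794 and 0.607 with R157K, 0.368, 0.343 and 0.355 with R157F and 0.222, 0.222 and 0.203 with R157S, against 0.169, 0.116 and 0.195 with WT.

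The promoters of ATP5ME and ATP5MK, the members with the largest rises with R157K, and of ATP5PB, the member with the largest fall, are printed for comparison. NRF1 and GABP (also called NRF2) are the classical activators of nuclear respiratory genes, and YY1 binds several of them. Windows run from 250 bases before to 50 after the RefSeq start (GRCh38.p14), on the gene's strand, at chr4:674227-674526 for ATP5ME (minus strand), chr10:103396426-103396725 for ATP5MK (minus strand), chr1:111449214-111449513 for ATP5PB (plus strand). Capitals mark matches, on either strand, to GCGCA followed by any base and GCGC for NRF1, CCGGAAG for GABP and ATGGCGGC for YY1.
ATP5ME: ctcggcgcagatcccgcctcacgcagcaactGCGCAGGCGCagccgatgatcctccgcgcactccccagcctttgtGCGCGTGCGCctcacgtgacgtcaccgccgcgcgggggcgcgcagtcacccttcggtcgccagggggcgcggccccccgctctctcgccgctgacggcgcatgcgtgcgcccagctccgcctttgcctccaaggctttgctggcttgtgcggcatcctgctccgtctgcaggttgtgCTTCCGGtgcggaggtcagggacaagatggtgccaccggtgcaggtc
ATP5MK: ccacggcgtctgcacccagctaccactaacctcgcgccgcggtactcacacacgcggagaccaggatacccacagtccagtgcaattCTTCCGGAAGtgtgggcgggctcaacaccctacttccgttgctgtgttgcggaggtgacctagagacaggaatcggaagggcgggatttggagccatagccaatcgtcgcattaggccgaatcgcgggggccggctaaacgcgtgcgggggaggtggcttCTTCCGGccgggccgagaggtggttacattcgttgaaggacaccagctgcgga
ATP5PB: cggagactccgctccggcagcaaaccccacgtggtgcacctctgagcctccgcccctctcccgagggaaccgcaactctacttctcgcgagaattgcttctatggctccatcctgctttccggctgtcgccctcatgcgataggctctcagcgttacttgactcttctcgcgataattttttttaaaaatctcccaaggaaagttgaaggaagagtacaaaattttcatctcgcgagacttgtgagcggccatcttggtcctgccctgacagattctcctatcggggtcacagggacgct
The ATP5ME window held 2 matches to the NRF1 letters and 1 to the GABP letters, the ATP5MK window held 3 to the GABP letters, a pair of them overlapping, and the ATP5PB window held none of these letters. RefSeq windows were found for 30 of the 37 members. The GABP letters were in 13 of the 30 (43.3%), against 10.7% of all 27305 windows, which were not limited to the genes tested here. The NRF1 letters were in 8 (26.7%), against 6.29%, and the YY1 letters in 2 (6.67%), against 3.21%. Of the 22 matched members called higher with R157K, 12 had the GABP letters and 6 the NRF1 letters, and of the other 8, 1 and 2. A match is a description of the sequence and not a bound site.

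The variants were also compared with each other. R157K against R157S gave 27 genes higher and 4 lower, where 7.9% of all tested genes were called higher and 42.2% lower, with a median relative change of 1.22. R157K against R157F gave 25 higher and 0 lower, where 3.3% and 26.4% were called, with a median of 0.95. R157F against R157S gave 1 higher and 1 lower, where 1.11% and 4.31% were called, with a median of 0.24. Median-ratio scaling gave 32 and 1 for R157K against R157S (17.8% and 14.7% of all tested genes), 28 and 0 for R157K against R157F (6.11% and 3.02% of all tested genes), and 0 and 1 for R157F against R157S (1.12% and 1.1% of all tested genes). It moved the higher share of all calls to 54.8%, 66.9% and 50.5%, against 15.8%, 11.1% and 20.4% as deposited. At an unadjusted p under 0.05 in limma, 27 of the members were higher and 2 lower with R157K than with R157F. The share of all tested genes at that threshold was not counted.

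The genes called lower with R157K than with R157S were ATP5PB (log2 change -1.53), UQCRC2 (-0.49), ATP5F1A (-0.37) and ATP5F1B (-0.24). The signs of ATP5F1A and ATP5F1B turned with median-ratio scaling, and those of UQCRC2, ATP5F1A and ATP5F1B with the trends removed. All 5 small subunits of complex III and all 5 small membrane subunits of ATP synthase were called higher with R157K than with R157F, against 0 of the 4 core genes of complex III. With the trends removed these counts were 4 and 5, against 1 of the 4 core genes. UQCR11 was then not called (adjusted p = 0.0888), and UQCRFS1 was called higher (0.33, adjusted p = 0.0422). The relative change with R157K against R157F was 1.68 for ATP5MK (adjusted p = 0.000234), 1.46 for COX7A2 (adjusted p = 0.000121) and 1.34 for ATP5ME (adjusted p = 0.00663). ATP5MC2 was called without the replicate block (adjusted p = 0.0391) and not with it (adjusted p = 0.0523), nor without any 1 of the 6 libraries (adjusted p = 0.0568 to 0.12). ATP5MC1, ATP5MG, COX7B and COX8A were called with no library left out (adjusted p = 0.0206, 0.0149, 0.04 and 0.0188) but not without R157K replicate 2 (0.0849, 0.0633, 0.128 and 0.0684). Other single libraries also ended these calls. They were R157F replicate 2 or 3 for ATP5MC1 (0.0743 and 0.0637) and R157F replicate 1 for ATP5MG (0.0506). For COX7B they were any R157F library or R157K replicate 3 (0.0872 to 0.0958), and for COX8A R157F replicate 1 or 2 (0.0558 and 0.0567). ATP5PB did not pass (log2 change -0.28, SE 0.14, adjusted p = 0.146).

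Between R157F and R157S, ATP5PB was the gene called lower (relative change -1.17, adjusted p = 0.00195). ATP5IF1 was the gene called higher (0.63, adjusted p = 0.0456), a call lost with the replicate block (adjusted p = 0.0665), with median-ratio scaling and without any 1 of the 6 libraries, which leaves 0. A fit on those 6 libraries alone called 13 higher and 4 lower, where 12.4% and 18.9% of all tested genes were called.

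The relative changes were higher in members with shorter transcripts. The principal transcripts of the members had a median length of 745 nt, from 305 to 5818 nt, against 2948 nt for the 12440 protein-coding genes tested. Of the 24 members up to 1000 nt, 22 (91.7%) were called higher and 0 lower with R157K against WT, with a median relative change of 1.69. Of all 782 tested protein-coding genes of that length, 485 (62.0%) were called higher and 82 (10.5%) lower, with a median of 1.05. The 13 longer members had 4 higher and 5 lower, with a median of 0.43, whereas the 11658 longer protein-coding genes had 15.2% higher and 52.8% lower, with a median of -0.09. With R157F, 16 of the 24 short members were higher and 1 lower (47.6% and 13.8% of the 782 genes), and with R157S, 5 and 0 (17.1% and 3.58%).

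Across the 37 genes, Spearman's rho of the change with transcript length was -0.74 with R157K, -0.62 with R157F and -0.53 with R157S, all against WT. With GC content it was 0.26, 0.59 and 0.67. Over the 14220 tested genes with an annotated transcript, rho was -0.40, -0.24 and -0.19 with length and 0.72, 0.81 and 0.76 with GC content. These values describe genes that share their libraries and are not independent. The libraries were size selected for fragments of 300 to 400 bp per the labels, and the shortest member transcript, at 305 nt, is in that range. The part of length and GC content in the results was not tested beyond removing their trends.

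With each library's trends on GC content and length removed, R157K against WT had 27 members higher and 4 lower, where 20.2% and 22.4% of the 14220 genes were called, and a median of 1.10 on the log2 scale. R157F had 18 and 5, where 14.2% and 14.6% were called. R157S had 3 and 0, where 3.3% and 2.57% were called. By part, complex III then had 4 higher and 1 lower with R157K, complex IV 9 and 1, and ATP synthase 14 and 2.

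**Figure D4:**
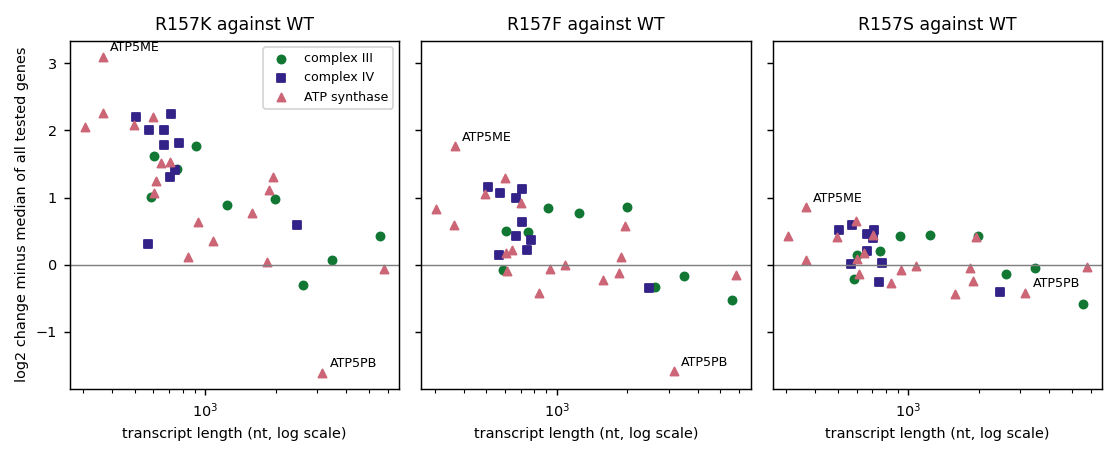
Relative change (log2 change minus the median of all tested genes) of the 37 genes against transcript length (nt, log axis) for R157K, R157F and R157S against WT. Symbols mark the complex. Members under 1000 nt reach the highest values, up to ATP5ME at 3.10 with R157K, and ATP5PB is the lowest point with R157K and R157F, at -1.61 and -1.58.

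Genes that work with these complexes were described from lists chosen with earlier results of these data known. The other subunits and isoforms, 16 genes, included the muscle and testis forms that can replace members. COX4I2, COX6A2, COX7B2 and ATP5MGL were listed at 0 in all 12 libraries, and COX6B2, COX8C, NDUFA4L2 and UQCRHL were under 1 TPM in every library. COX7A1 was at 0 in 8 libraries but reached 4.02 TPM in R157K replicate 2 and 3.37 TPM in R157F replicate 1. Of the 8 tested, 1 was called higher and 3 lower with R157K against WT. With the trends removed the counts turned to 3 higher and 1 lower. NDUFA4, a complex IV subunit first assigned to complex I, averaged 53.5 ± 13.4 TPM with R157K and 35.3 ± 1.30 TPM with WT (relative change 0.90, adjusted p = 0.00755). COX7A2L, which joins complexes III and IV in supercomplexes, averaged 47.8 ± 4.32 TPM with R157K and 90.8 ± 11.1 TPM with WT (relative change -0.57, adjusted p = 0.00019). Of the 4 complex II genes, which feed ubiquinol to complex III, SDHB and SDHD were called lower, with relative changes of 0.00 and -0.10, close to the median of all genes, where the sign depends on the scaling.

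The mitochondrially encoded subunits of the same complexes had 0 of 6 called higher and 4 lower with R157K against WT. MT-CO1, the catalytic subunit of complex IV, had 4897, 5315 and 4921 TPM with R157K, 6905, 7406 and 6453 TPM with R157F and 9117, 9813 and 9637 TPM with R157S, against 12997, 11579.6 and 9760.4 TPM with WT. MT-ATP6, the proton channel subunit of ATP synthase, had 1981, 2129 and 1830.4 TPM with R157K, 2386, 2683 and 2158 TPM with R157F and 3782, 3844 and 3956 TPM with R157S, against 4235, 4482 and 3763 TPM with WT. For both genes every R157K library was below every library of the other plasmids. The relative change with R157K was -0.83 for MT-CO1 (adjusted p = 2.50e-06) and -0.73 for MT-ATP6 (adjusted p = 3.46e-06). MT-CYB, of complex III, and MT-CO3, of complex IV, were also called lower, at relative changes of -0.23 and 0.11, so that the sign of MT-CO3 depends on the scaling; with median-ratio scaling neither was called (adjusted p = 0.244 and 0.123). Removing the trends gave 1 higher and 3 lower. As deposited, MT-CO2 and MT-ATP8 were not called with R157K against WT. MT-ATP8 had 15761, 17696 and 16968 TPM with R157K, 11678, 11757 and 14679 TPM with R157F and 11314, 9077 and 10246 TPM with R157S, against 11555, 25397 and 9956 TPM with WT. Its R157K libraries thus lay above every other library except WT replicate 2. With R157K against R157S, 1 of the 6 was called higher and 4 lower.

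Cytochrome c and the carriers that supply ATP synthase were mixed, with 2 higher and 5 lower of 8 with R157K against WT. CYCS, the soluble cytochrome c that links complexes III and IV, averaged 40.5 ± 10.7 TPM with R157K and 132 ± 32.7 TPM with WT (relative change -1.34, adjusted p = 1.04e-05). VDAC1 and VDAC2, pores of the outer membrane, were also lower (relative changes -0.45 and -0.68). SLC25A3, the phosphate carrier, averaged 895 ± 77.3 TPM with R157K and 569.8 ± 16.1 TPM with WT (relative change 0.99, adjusted p = 2.34e-05), and was called higher. Removing the trends gave 3 higher and 4 lower of the 8.

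Assembly factors split. Of the 28 complex IV assembly genes, 10 were higher and 8 lower with R157K against WT. COX17, a copper chaperone, averaged 101 ± 22.1 TPM with R157K and 31.2 ± 6.36 TPM with WT (log2 change 1.66). COX14, a small factor for making MT-CO1, averaged 98.4 ± 13.9 TPM with R157K and 30.1 ± 6.58 TPM with WT (relative change 2.03), and HIGD2A, a small assembly factor, averaged 116 ± 5.94 TPM with R157K and 43.0 ± 12.3 TPM with WT (relative change 1.80). LRPPRC, a large protein that stabilises mitochondrial mRNAs, averaged 42.2 ± 3.85 TPM with R157K and 99.8 ± 15.4 TPM with WT (relative change -0.88, adjusted p = 5.23e-06). Of the 6 complex III assembly genes, 3 were higher and 1 lower, with UQCC2 at a relative change of 1.40 (adjusted p = 5.42e-05). Of the 5 ATP synthase assembly genes, FMC1 was higher (1.71, adjusted p = 0.00266) and ATPAF1, a chaperone of the beta subunit, was lower (-0.91, adjusted p = 2.30e-06). Removing the trends gave 17 higher and 3 lower of the 28 complex IV assembly genes. For complex III assembly it gave 3 and 0 of the 6 genes, and for ATP synthase assembly 3 and 1 of the 5.

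The import machinery brings the 37 products into mitochondria, and 10 of 21 import genes were higher and 6 lower with R157K against WT. With the trends removed 9 were higher and 5 lower. TOMM7, a very small subunit of the outer membrane channel, averaged 1128 ± 132 TPM with R157K and 291 ± 47.7 TPM with WT (relative change 2.30, adjusted p = 7.06e-07). TOMM70, a receptor of the outer membrane, averaged 30.5 ± 2.52 TPM with R157K and 69.2 ± 13.8 TPM with WT (-0.80, adjusted p = 1.03e-05). HSPA9, the matrix chaperone that pulls proteins in, averaged 127 ± 5.47 TPM with R157K and 257 ± 28.6 TPM with WT (-0.66, adjusted p = 2.79e-06), and HSPD1, the large chaperonin of the matrix, averaged 209 ± 10.8 TPM with R157K and 456 ± 72.7 TPM with WT (-0.77, adjusted p = 4.28e-06).

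In the citrate cycle, which supplies electrons to the chain, 0 of 13 genes were called higher and 9 lower with R157K against WT. CS, citrate synthase, averaged 87.5 ± 5.46 TPM with R157K and 182 ± 12.1 TPM with WT (relative change -0.71, adjusted p = 1.57e-06), and IDH3A, the catalytic subunit of isocitrate dehydrogenase, averaged 22.2 ± 3.20 TPM with R157K and 76.2 ± 2.18 TPM with WT (-1.41, adjusted p = 2.48e-06). Removing the trends gave 0 higher and 6 lower. Of 10 tested regulators of respiratory genes, 1 was called higher and 8 lower. ESRRA, an orphan nuclear receptor that activates them, was the higher (1.37, adjusted p = 4.91e-05). GABPB1, the activating subunit of GABP, had a relative change of -0.76, YY1 of -0.94 and TFAM, which packages mitochondrial DNA, of -0.98. Removing the trends left 2 regulators higher and 2 lower, and neither GABPB1 (-0.03, adjusted p = 0.799) nor TFAM (-0.22, adjusted p = 0.106) was called.

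**Figure D5:**
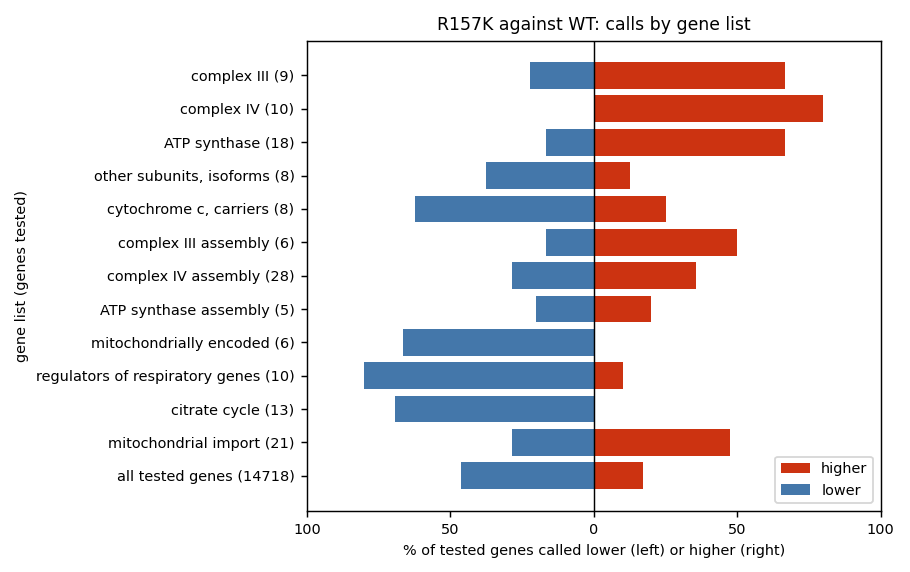
Percent of tested genes called higher (right, red) or lower (left, blue) in R157K against WT, for the 3 complexes, the lists of associated genes and all tested genes; the number tested is in brackets. The 3 complexes lean to the right, with 6 of 9, 8 of 10 and 12 of 18 higher, whereas the citrate cycle (0 higher, 9 lower of 13) and the mitochondrially encoded genes (0 higher, 4 lower of 6) lean to the left, as do all tested genes (17.3% and 46.2%).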

How the data were processed

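Values are TPM deposited by the authors for 12 libraries; per the submitters' processing notes the tool was RSEM (no version). The aligner, build, annotation and strand setting were not given in the sources used here. Depth is unknown, so no counting interval is given. limma 3.58.1 in R 4.3.3 was fitted to log2(TPM + 1) with 4 groups (8 residual df, trended variance) over 14718 genes, those reaching 1 TPM in 3 or more libraries, with Benjamini-Hochberg adjustment; it was tested on simulated data. Fold changes of low genes are understated on this scale. The members and lists were chosen with earlier results of these data known. Library values are given for the 4 members with the largest positive and negative relative change of each variant against WT, the c-ring genes, UQCRC1, ATP5F1A and ATP5F1B, and pathway genes by lowest adjusted p. The alternatives were a pseudocount of 0.1, no filter, 2-plasmid fits, the replicate block, median-ratio scaling, removal of each library's GC content and length trends (spline, 5 df), and leaving out each library. The labels give the replicate number as a batch, so the block pairs libraries; deviations of same-numbered libraries correlated at -0.128 to 0.393. Positions and lengths come from GENCODE 29 (GRCh38), promoters from RefSeq (GRCh38.p14).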

Additional observations from a re-analysis of the deposited data

How the results depend on the processing

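Counts are of the 37 genes, higher and lower. With R157S against WT (5 and 1), the higher count was 0 with no filter, 0 with 2 plasmids and 3 with the trends removed, with or without the block. The lower count was 0 with no filter, 2 plasmids, scaling or the trends removed (also with the block) and 2 with the replicate block. Leaving out a library gave 0 to 13 higher and 0 to 3 lower. The lower count of R157K against WT (5) was 3 with 2 plasmids and 1 with scaling, and against R157S (4) 1 with scaling. R157F against R157S (1 and 1) gave 0 higher with no filter, scaling, the replicate block or any library left out, 6 with the trends removed, and 13 higher and 4 lower with 2 plasmids.

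Leaving out a library gave 25 to 27 higher and 4 to 5 lower with R157K against WT, 16 to 19 and 5 to 6 with R157F against WT, 26 to 27 and 3 to 5 with R157K against R157S, and 20 to 24 and 0 with R157K against R157F. For the 16 members with library values, over 6 comparisons, 1087 values under alternatives kept their status as called or not called. Another 35 gained the call, 106 lost it, and 20 turned in sign where either fit called the gene. Turns in sign called in neither fit are counted among the 1087, as for ATP5MC3 with R157K against WT (-0.22, and 0.20 with scaling). For other members, turns against WT that were called in either fit stand with the results. With scaling, ATP5F1A turned to 0.012 with R157K against WT and 0.0182 against R157S, and ATP5F1B to 0.1234 and 0.1482. With the trends removed, with or without the replicate block, UQCRC2 turned to 0.0188 (R157K against WT) and 0.0105 (against R157S), ATP5F1A to 0.3673 (R157K against WT), 0.2664 (against R157S), 0.2566 (against R157F) and 0.1107 (R157F against WT), ATP5F1B to 0.0079 (R157K against R157S) and UQCRB to 0.1438 (R157F against WT); the cause was not tested. Beside the calls given with the results, the replicate block changed no other call of a member.

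Over all genes, 3002 were called with R157S against WT, but 590 with no filter, 9 with 2 plasmids, 835 with the trends removed (670 with the block) and 39 to 5749 without a library. R157K against WT had 9359 and 6058 with the trends removed (5949 with the block), and R157F against WT 8571 and 4097 (3893). R157K against R157S had 7371, 4794 with scaling and 4083 with the trends removed (3968). R157K against R157F had 4370, 1343 with scaling, 1664 with the trends removed (1448) and at least 2440 without a library. R157F against R157S had 798, 344 with no filter, 4615 with 2 plasmids, 327 with scaling, 497 with the trends removed (322) and 33 to 353 without a library. The depth, which TPM does not keep, limits the low values to an unknown degree.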
